A study of Mus musculus with 14 samples.

Results

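The high-affinity receptor for immunoglobulin E (IgE) is built from the products of 3 genes, Fcer1a (alpha chain), Ms4a2 (beta chain) and Fcer1g (gamma chain). The platform annotation assigned 4 of the 45101 probe sets on the Affymetrix Mouse 430 2.0 array to them, and all 4 are described: 1 for Fcer1a, 2 for Ms4a2 and 1 for Fcer1g. They are 3 of the 18194 genes tested. The 14 arrays formed 7 groups of 2. WT groups were Tet2+/+ Mx+ and knockout (KO) groups were Tet2-/- Mx+ littermates, both on a B6/129 background, and both received the double-stranded RNA analogue pIC, which induces the Mx-driven Cre used to delete the floxed allele. LSK cells (lineage negative, c-Kit and Sca1 positive marrow progenitors) and common myeloid progenitors (CMP) were sorted 4 weeks after deletion. Granulocyte-macrophage progenitors (GMP) were sorted too, with no time stated. The 7th group was grown from Tet2-deficient LSK cells sorted as CD150+ and plated 5 times in succession, and no replated WT group was among the samples. The labels leave unsaid whether both arrays of 1 group are from different animals or cultures, so p-values measure the spread between these samples only. An Mx-driven deletion acts in every cell that responds to interferon, and how complete it was is not stated.

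The alpha chain holds the IgE binding site outside the cell. The beta chain spans the membrane several times and amplifies the signal, and the gamma chain, shared with several other Fc and lectin receptors, carries the ITAM motif (an immunoreceptor tyrosine-based activation motif) that recruits the kinase Syk. In mice the receptor is best known on mast cells and basophils, where cross-linking of bound IgE releases histamine and other granule contents, and surface display in rodents needs all of its chains. GATA factors are known regulators of the alpha and beta chain genes in mast cells.

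The promoter windows of the 3 genes are shown because the alpha, beta and gamma genes behaved differently below, and because GATA factors act on this gene family. They come from the RefSeq promoter table (build GRCm38.p6), all from the minus strand, 5′ to 3′, with the motif GATA on either strand (GATA or TATC) in capitals. Bases inside any annotated transcript of the gene are left out, so 1 of the 5 matches of Ms4a2 is shown.
Fcer1a, chr1:173227233-173227479: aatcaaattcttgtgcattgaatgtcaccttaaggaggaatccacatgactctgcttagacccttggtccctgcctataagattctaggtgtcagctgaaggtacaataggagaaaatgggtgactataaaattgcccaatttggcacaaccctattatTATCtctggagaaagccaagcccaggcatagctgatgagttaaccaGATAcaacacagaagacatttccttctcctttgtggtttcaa
Ms4a2, chr19:11623791-11623969: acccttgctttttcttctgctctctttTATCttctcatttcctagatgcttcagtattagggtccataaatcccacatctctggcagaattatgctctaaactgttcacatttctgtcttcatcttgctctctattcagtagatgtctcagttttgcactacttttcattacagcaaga
Fcer1g, chr1:171234350-171234599: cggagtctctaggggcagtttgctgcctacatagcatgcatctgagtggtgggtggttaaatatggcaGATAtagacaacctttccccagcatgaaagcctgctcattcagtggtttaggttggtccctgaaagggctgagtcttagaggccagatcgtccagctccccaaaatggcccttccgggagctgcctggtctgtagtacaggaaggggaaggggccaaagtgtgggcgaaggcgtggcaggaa
In the full window of 250 bases, Fcer1a held 2 matches, Ms4a2 held 5 (1 of which overlaps another) and Fcer1g held 1. For Fcer1a and Ms4a2 this window runs into an annotated transcript, and only 1 of the 5 Ms4a2 matches lay outside it. At least 1 match stood in 53.6% of 32851 RefSeq windows of 250 bases. As many matches as Ms4a2 holds, those inside its annotated transcript included, were found in 1.2% of windows. As many as Fcer1a holds were found in 24.2%. With the longer motif AGATAA or TGATAA on either strand, which contains GATA, the counts were 1, 3 and 0, and 16.6% of windows held at least 1. Of those 3 in Ms4a2, 1 lay outside its annotated transcripts. The sequence CG occurred 0 times in the Fcer1a window, 1 time in that of Ms4a2 and 5 times in that of Fcer1g, against a median of 6. These are matches of letters in a reference and no binding or methylation was measured in the values used here.

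The values were RMA (robust multi-array average) intensities on a linear scale. A probe set was called above background when it exceeded the highest of 27 bacterial control probe sets of the same array, a floor that lay between 20.8 and 27.8. Replicate arrays correlated at 0.961 to 0.993 over all probe sets. The WT and KO groups also differed in sex-linked genes: Xist, expressed in female cells, averaged 21.3 to 28.1 in the sorted WT groups and 5011 to 6590 in the sorted KO groups, and Eif2s3y, on the Y chromosome, averaged 894 to 1158 in WT against 7.29 to 11.2 in KO. The replated KO arrays had the pattern of WT (Xist averaged 20.1, Eif2s3y 2069). WT against KO, and replated against sorted KO, were therefore also comparisons between arrays of opposite sex pattern, and genotype and sex pattern cannot be told apart in the sorted groups. Tet2 itself, on its brightest probe set, averaged 613 in WT LSK and 1261 in KO LSK. The place of that probe set relative to the deleted part is not given, so it checks nothing about the deletion.

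The Tet2 KO progenitors differed from WT in the alpha chain transcript. Averaged over LSK, CMP and GMP, Fcer1a was 9.48-fold higher in KO (log2 difference 3.25 ± 0.31 SE, limma adjusted p = 0.0021, n = 6 arrays against 6), while neither Ms4a2 nor Fcer1g passed the test. Of all genes tested in this average 0.308% passed, so 1 of 3 receptor genes did where the background was 56 of 18194.

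In LSK, Fcer1a read 6.32 and 24.7 on the WT arrays and 125 and 160 on the KO arrays. In CMP it read 34.9 and 57.3 in WT against 745 and 823 in KO. In GMP it read 85.3 and 103 in WT against 321 and 505 in KO. Both KO arrays lay above both WT arrays in all 3 populations, an ordering found in 18.1% of genes in LSK, 22.9% in CMP and 19.1% in GMP, and in every population at once in 1.29%. The log2 difference was 3.51 ± 0.53 SE in LSK (adjusted p = 0.0424, with 0.264% of genes passing), 4.13 ± 0.53 in CMP (adjusted p = 0.0233, with 0.121% passing) and 2.10 ± 0.53 in GMP (adjusted p = 0.701, with 0.0934% passing), all by limma. As folds these were 11.4, 17.5 and 4.29. In LSK 1 of the 2 WT arrays lay under its floor, and with that array set to the floor the LSK fold was 6.05 and the average over populations 7.68. The calls in single populations depended on the other arrays that set the spread: with the 12 sorted arrays alone the adjusted p was 0.0987 in LSK and 0.0758 in CMP. Leaving out any 1 array other than a WT LSK array ended the LSK call (12 of 14 arrays, log2 difference 3.33 to 3.68, adjusted p 0.0584 to 0.0987), and without a WT LSK array it was 2.52 or 4.49 and passed. Leaving out any 1 WT CMP, KO CMP, WT GMP or replated array ended the CMP call (8 of 14 arrays, 3.77 to 4.49, adjusted p 0.0554 to 0.127). The averaged difference passed without any 1 array (2.92 to 3.57, adjusted p up to 0.0127). With every value raised to its array's floor, the GMP difference passed (adjusted p = 0.0293).

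**Figure D1:**
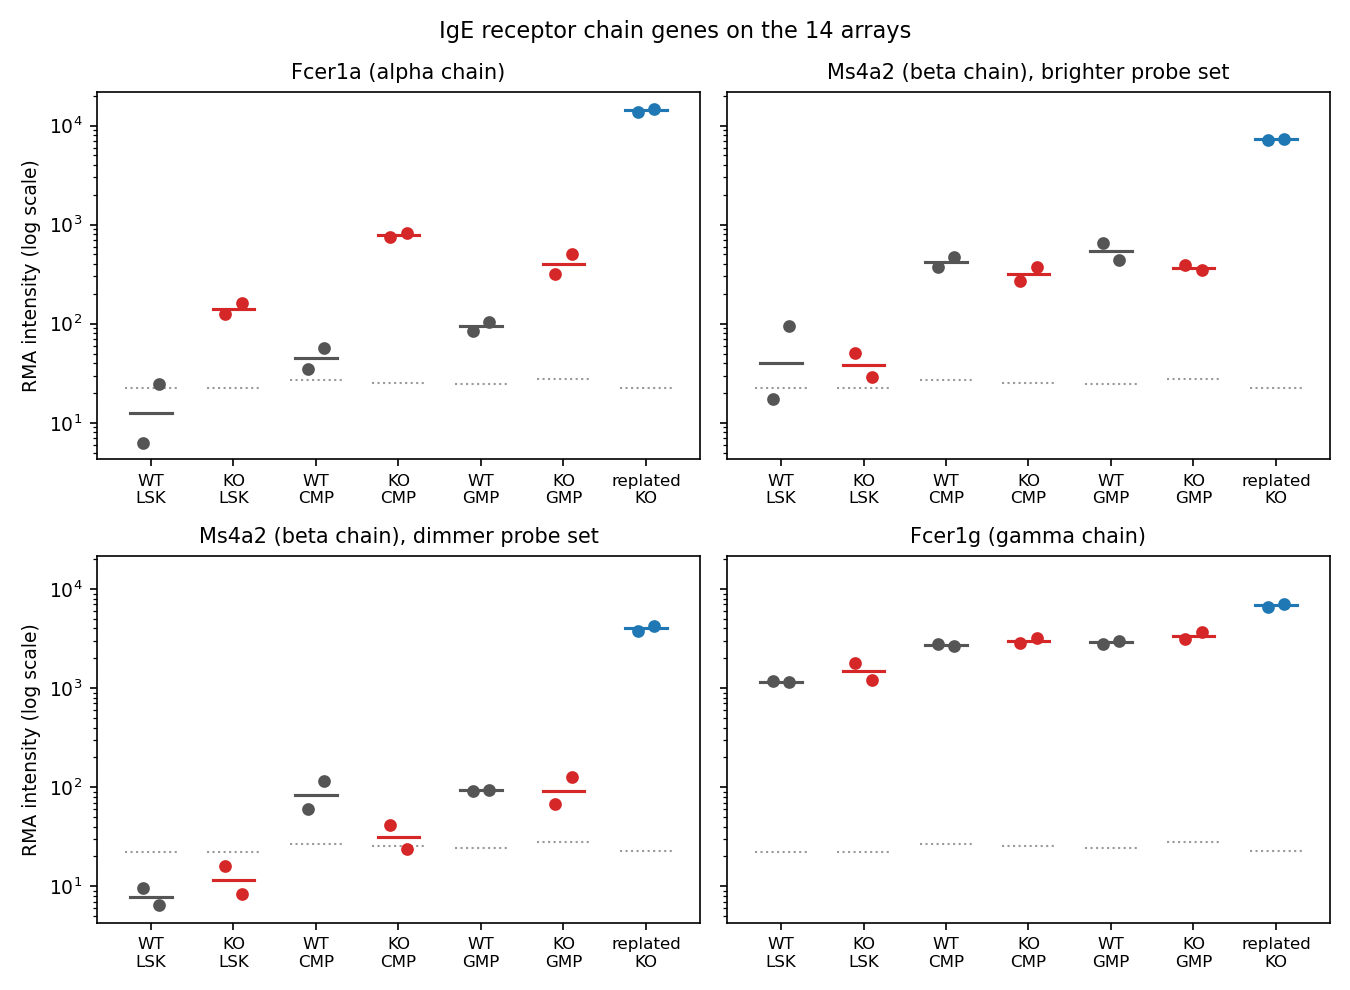
RMA intensity (log axis) of the 4 receptor probe sets on the 14 arrays: points are arrays, short solid lines the group means of log2 values, and dotted lines the higher background floor of each group's arrays. Fcer1a and, by smaller gaps, Fcer1g are higher on both KO arrays than on both WT arrays of LSK, CMP and GMP. Among sorted groups, Ms4a2 and Fcer1g are lowest in LSK, and all 4 probe sets are highest in the replated KO cells.

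In WT LSK the alpha chain transcript was near background, and KO LSK arrays read above WT GMP arrays. Ordered from low to high, Fcer1a ran WT LSK, WT CMP, WT GMP, KO LSK, KO GMP, KO CMP and replated KO. Among neighbours in this order, tested on the probe set scale, only the last step passed (KO CMP to replated KO, log2 difference 4.18 ± 0.54 SE, limma adjusted p = 0.000505). The other 5 steps ran from 0.59 to 1.84 with adjusted p from 0.159 to 0.700, although the arrays of neighbouring groups did not overlap. Whether the KO effect was of different size between populations was tested by its interaction. GMP minus CMP gave -2.03 ± 0.75 (unadjusted p = 0.0244, limma adjusted p = 1 after rounding), a contrast in which 0 of 18194 genes passed, and neither CMP minus LSK (0.62, adjusted p = 0.931, with 0.022% of genes passing) nor GMP minus LSK (-1.41, adjusted p = 0.862, with 0.0055% passing) passed. Dropping WT LSK replicate 1 moved the last value to -0.42, dropping replicate 2 of that group moved it to -2.39, and it was -0.50 with values raised to the floor.

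The beta chain did not follow the alpha chain. The brighter Ms4a2 probe set read 17.2 and 95.3 in WT LSK against 50.4 and 28.8 in KO LSK. In CMP it read 374 and 468 in WT against 267 and 375 in KO. In GMP it read 655 and 443 in WT against 395 and 345 in KO. WT and KO arrays overlapped in LSK and CMP, and in GMP both KO arrays lay below both WT arrays, as did 16.9% of named probe sets. The averaged log2 difference was -0.35 ± 0.37 SE (95% interval -1.18 to 0.49, limma adjusted p = 0.819), and 0.066 without WT LSK replicate 2. In single populations it was -0.09, -0.40 and -0.55 for LSK, CMP and GMP, with adjusted p from 0.951 to 1. The interval of the average leaves out a change as large as that of Fcer1a.

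The dimmer Ms4a2 probe set, which reads the same gene, lay under the floor on all 4 LSK arrays. In CMP it read 60.3 and 116 in WT against 41.7 and 23.9 in KO, and in GMP 92.0 and 94.7 in WT against 68.4 and 125 in KO. In CMP both KO arrays lay below both WT arrays (16.2% of named probe sets did), with a log2 difference of -1.40 ± 0.45 SE that did not pass (limma adjusted p = 0.660). In GMP the difference was -0.01 ± 0.45. The 2 probe sets correlated at r = 0.937 over the 14 arrays and 0.852 over the 12 sorted ones, as a description, and both placed LSK lowest and the replated cells highest.

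The gamma chain was abundant in every group. Fcer1g read 1170 and 1142 in WT LSK against 1811 and 1200 in KO LSK. In CMP it read 2772 and 2645 in WT against 2840 and 3197 in KO. In GMP it read 2787 and 2993 in WT against 3109 and 3676 in KO. As for Fcer1a, both KO arrays lay above both WT arrays in LSK, CMP and GMP, an ordering found in 1.29% of genes. The gaps were small, down to 1200 against 1170 in LSK. The averaged log2 difference was 0.24 ± 0.11 SE (95% interval -0.0026 to 0.49, unadjusted p = 0.0520, limma adjusted p = 0.546), a 1.18-fold difference, and none of LSK (0.35), CMP (0.15) and GMP (0.23) passed. Leaving out 1 array moved these from 0.054 to 0.65 in LSK, 0.069 to 0.24 in CMP, 0.11 to 0.35 in GMP and 0.15 to 0.34 on average, with no call. The gamma and beta chains were thus not called by genotype on the same arrays on which the alpha chain was.

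**Figure D2:**
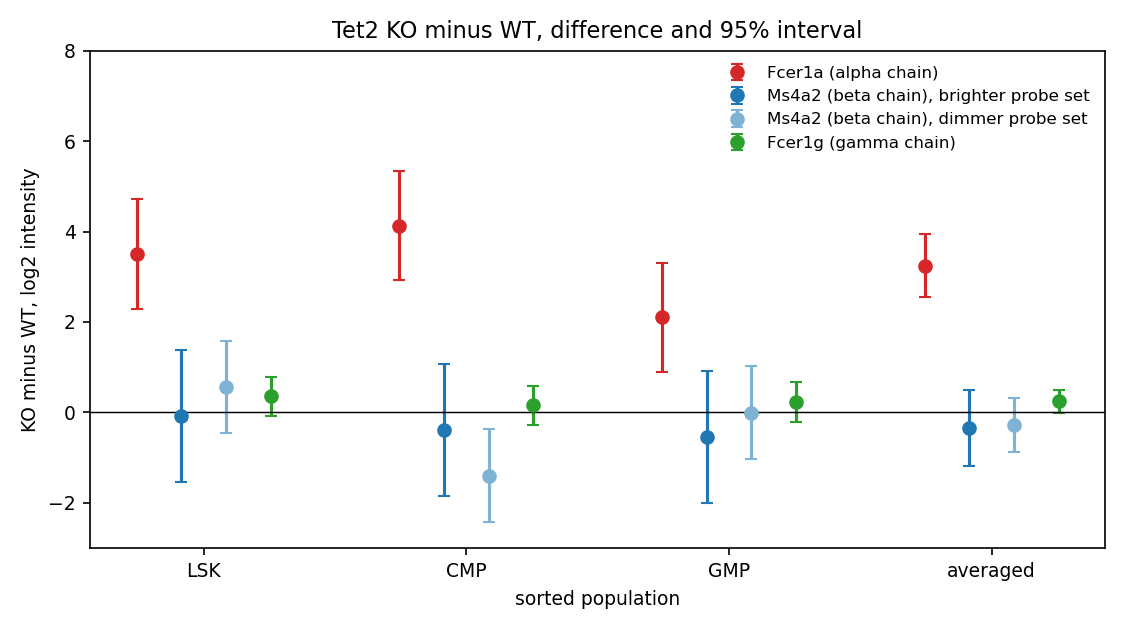
KO minus WT log2 intensity for each receptor probe set in LSK, CMP and GMP and averaged over them (points), with 95% intervals from the fit over named probe sets (bars). The Fcer1a intervals lie above 0 in all 4 positions, with an averaged value of 3.25, while the averaged intervals of both Ms4a2 probe sets and of Fcer1g include 0 and that of the dimmer Ms4a2 probe set in CMP lies below it.

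The chains were then compared within each array, as the log2 ratio of one gene to another, which removes anything that scales a whole array. The Fcer1a to Ms4a2 log2 ratio was 3.59 higher in KO than in WT on average (3.60 in LSK, 4.53 in CMP and 2.65 in GMP). An exact two-sided permutation test of the genotype labels within populations gave p = 0.00926 (n = 6 KO and 6 WT arrays), the smallest that its 216 relabellings allow. Over the 4 ratios compared the adjusted p was 0.0123. The ratios were chosen after the values were seen. Fcer1a was by then known to read higher in KO in LSK, CMP and GMP, so a p near the smallest possible was likely in advance. The ratio of Fcer1a to the dimmer Ms4a2 probe set (3.53) and that of Fcer1a to Fcer1g (3.0) gave the same p and adjusted p, and all 3 had the same sign in LSK, CMP and GMP. These 3 ratios share the Fcer1a values, so their equal p-values are not separate evidence. In LSK the dimmer Ms4a2 probe set lay under the floor on all 4 arrays and Fcer1a on 1 WT array, so the LSK parts of these ratios are set against background. With every value raised to its floor, the 3 ratios of Fcer1a to the other probe sets were 3.35, 3.40 and 2.70 on average, with the same exact permutation p. The Ms4a2 to Fcer1g ratio was lower in KO by -0.59 and did not pass (exact permutation p = 0.185), but it was -1.01 and passed without WT LSK replicate 1 (adjusted p = 0.0123), and -0.17 without WT LSK replicate 2. These ratios show unequal change between the transcripts. In sorted bulk cells, more cells carrying a transcript and more transcript per cell cannot be told apart.

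Markers of cells that normally carry the receptor were read on the same arrays. By genotype on average, 0.308% of all genes passed. Of the 14 measured mast cell markers 0 passed in the averaged KO minus WT comparison, with a median log2 difference of -0.03 against 0.03 for all genes. Their summed intensity was 4747 to 5013 in KO LSK against 4357 to 5286 in WT LSK, 5701 to 6136 against 5612 to 6067 in CMP, and 4636 to 5551 against 4849 to 5593 in GMP, so the ranges of KO and WT overlapped in each. The list includes Kit, by which LSK cells were sorted and which the stem cell list shares. The sum is therefore not specific to mast cells. The mast cell proteases Mcpt4, Mcpt1, Mcpt2 and Tpsab1 and the receptor Mrgprb1 lay below the floor on both arrays of every sorted group. Of 9 basophil markers 1 passed, Cd200r3 (0.93 ± 0.13 SE, limma adjusted p = 0.0261), whose levels lay under the floor in 5 of 6 sorted groups and on 1 of 2 KO GMP arrays. The basophil protease Mcpt8, which defines that cell type in mice, averaged 179, 522 and 921 in WT LSK, CMP and GMP against 136, 650 and 936 in KO. Summed basophil markers overlapped as well, at 1046 to 1272 in KO against 1191 to 1230 in WT LSK, 1647 to 2099 against 1709 to 2209 in CMP, and 2487 to 2788 against 2494 to 2777 in GMP.

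Markers of other cells moved in places. Of all genes, 0.308% passed in the averaged KO minus WT comparison. In the averaged comparison 1 of 11 dendritic cell markers rose (Cd74, 1.84 ± 0.29 SE, adjusted p = 0.0490), as did 1 of 9 monocyte and macrophage markers (Cd14, 1.06 ± 0.16, adjusted p = 0.0407), 1 of 9 megakaryocyte and platelet markers (Selp, 1.90 ± 0.16, adjusted p = 0.000683) and 1 of 7 B cell markers (Ms4a1, 2.45 ± 0.17, adjusted p = 0.000137), all by limma. The other B cell markers did not pass and ran both ways, among them Vpreb1 (-2.14), Igll1 (-1.30), Cd79a (-0.43) and Ebf1 (1.43). None passed among eosinophil, neutrophil, erythroid, T and NK cell, stem cell, or CMP and GMP markers. The summed dendritic cell markers were 9029 to 10730 in KO against 9254 to 9673 in WT LSK, 6557 to 7018 against 6348 to 6478 in CMP, and 4479 to 4713 against 3449 to 3622 in GMP, higher in KO without overlap in CMP and GMP. The summed monocyte markers were 7192 to 8035 against 6065 to 6503 in LSK, overlapped in CMP, and were 19837 to 20113 against 15578 to 16434 in GMP. The summed B cell markers were lower in KO, at 2605 to 3391 against 6538 to 10213 in LSK and 836 to 1095 against 1164 to 1780 in CMP, and overlapped in GMP. Megakaryocyte and platelet sums were higher in KO LSK (3508 to 4123 against 2001 to 2496) and CMP (4677 to 5367 against 3636 to 3715) and slightly lower in GMP (1915 to 2190 against 2192 to 2205). Stem cell sums were higher in KO CMP (11032 to 12872 against 10001 to 10850) and GMP (7180 to 7713 against 6284 to 6392). Sums of the CMP and GMP markers were lower in KO CMP (31936 to 32347 against 33608 to 34506) and GMP (49490 to 49673 against 50963 to 51922). Eosinophil sums were lower in KO LSK (424 to 553 against 697 to 926), erythroid sums in KO CMP (7900 to 9683 against 10694 to 11240), and T and NK cell sums in KO LSK (4181 to 4362 against 4530 to 5592) and GMP (8451 to 8732 against 8755 to 8970). Over the 12 marker lists, KO and WT sums did not overlap for 5 in LSK, 6 in CMP and 6 in GMP, in both directions. KO sums were higher for 2, 3 and 3 of the 12, where 18.1%, 22.9% and 19.1% of single genes had both KO arrays above both WT arrays. KO sums were lower for 3 in each population. Both KO arrays lay below both WT arrays in 16.2% of 34958 named probe sets in CMP and 16.9% in GMP. These lower shares are over probe sets rather than genes, and none is given for LSK. Such separation is thus common with 2 arrays in a group. These sums carry no test, and their part in the Fcer1a result was not tested.

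The genes around Fcer1a on chromosome 1 were read in the same way, in RefSeq gene order. Of the 20 nearest measured genes, 10 on each side, 14 were above the floor on at least 1 sorted array. In the averaged comparison, where 0.308% of all genes passed, 1 of the 20 did. It was Ifi202b, an interferon-inducible p200 family gene at the edge of that range, with 9 measured genes between it and Fcer1a. Ifi202b read 17.4 to 22.9 in WT LSK against 61.7 to 108 in KO, 16 to 19.2 against 87.9 to 105 in CMP, and 17 to 18.5 against 634 to 796 in GMP. Its averaged log2 difference was 3.27 ± 0.16 SE (limma adjusted p = 1.2e-05), and WT arrays lay under the floor except for 1 in LSK. The adjacent gene Ackr1, a chemokine-binding receptor, gave 1.01 ± 0.31 (adjusted p = 0.347) and Ifi209, another p200 gene, gave -1.58 ± 0.27 (adjusted p = 0.0588). In the replated KO cells, whose sex pattern was that of the WT arrays, Ifi202b lay under the floor at 16.5 and 11.9. Around Fcer1g, also on chromosome 1 with 44 measured genes between it and Fcer1a, 0 of 20 neighbours passed. Around Ms4a2 on chromosome 19, 1 of 20 did, the B cell gene Ms4a1, a member of the same gene family. The part of the surrounding chromosome stretch in the Fcer1a result was not tested.

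**Figure D3:**
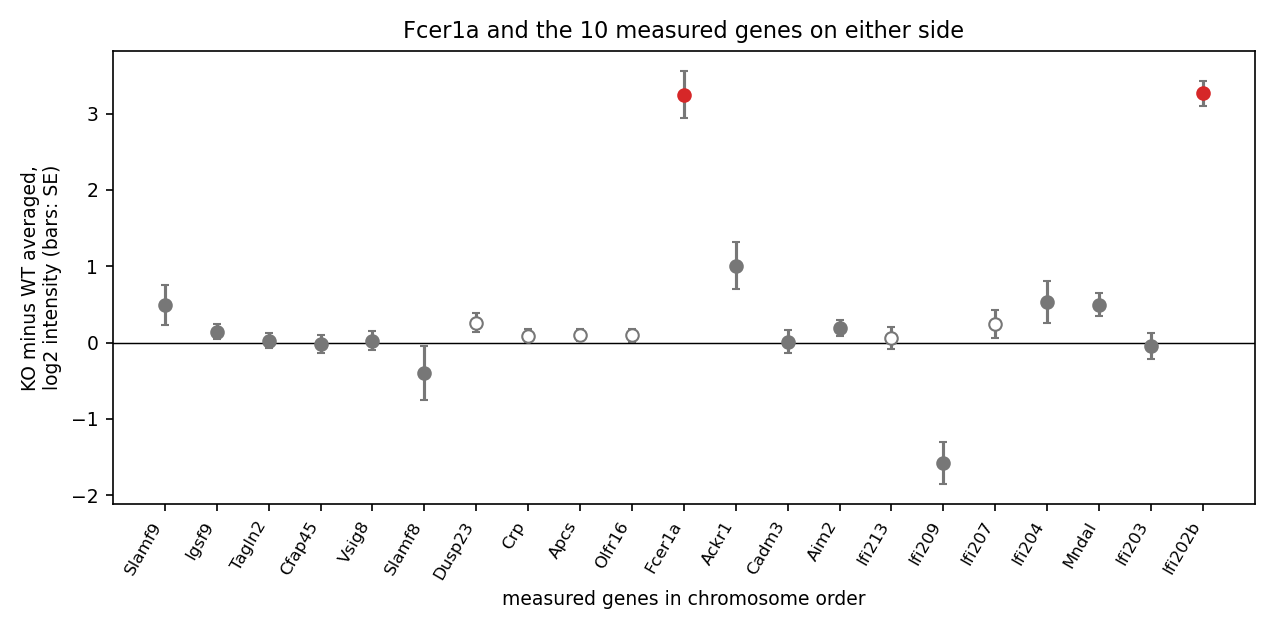
Averaged KO minus WT log2 difference (points, with SE bars) for Fcer1a and the 10 measured genes on either side in RefSeq gene order, not to distance: red points passed at adjusted p below 0.05, grey ones did not, and hollow ones were never above background on a sorted array. Fcer1a (3.25) and Ifi202b (3.27) passed, with the genes between them from -1.58 to 1.01.

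Between the sorted populations of WT mice the receptor genes rose from LSK to the myeloid progenitors. From WT LSK to WT CMP, Ms4a2 rose 10.3-fold (log2 difference 3.37 ± 0.64 SE, limma adjusted p = 0.0395) and Fcer1g 2.34-fold (1.23 ± 0.19, adjusted p = 0.0154), so 2 of 3 passed against 1.53% of all genes. Fcer1a gave 1.84 ± 0.53 (adjusted p = 0.164). From WT LSK to WT GMP all 3 passed against 7.09% of genes: Fcer1a by 2.91 ± 0.53 (adjusted p = 0.0115), Ms4a2 by 3.73 ± 0.64 (adjusted p = 0.00875) and Fcer1g by 1.32 ± 0.19 (adjusted p = 0.00342). With the WT LSK array under the floor set to it, the fold from LSK to GMP was 4.01 for Fcer1a and 11.7 for Ms4a2. The Ms4a2 call from LSK to CMP was lost without any 1 of 10 arrays (either CMP or GMP array of WT or KO, or either replated array, adjusted p 0.0555 to 0.215), with a difference of 2.13 without WT LSK replicate 1, and the Fcer1g call without WT LSK replicate 1 or either WT CMP array. From LSK to GMP the Fcer1a call was lost without WT GMP replicate 2 (adjusted p = 0.077), with a difference of 1.93 without WT LSK replicate 1, and the Ms4a2 call without WT GMP replicate 1 (0.0577). Without WT LSK replicate 2, Fcer1a passed from LSK to CMP (2.82, adjusted p = 0.00634). From WT CMP to WT GMP none of the 3 passed, against 0.89% of genes, and the differences were 1.07, 0.36 and 0.09.

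The same steps in KO mice share no arrays with those in WT. From KO LSK to KO CMP, 1 of 3 passed against 1.15% of genes, Fcer1g by 1.03 ± 0.19 (limma adjusted p = 0.0406), while Ms4a2 gave 3.05 ± 0.64 (adjusted p = 0.0645) and Fcer1a 2.46 ± 0.53 (adjusted p = 0.0701). From KO LSK to KO GMP, 2 of 3 passed against 7.18% of genes, Ms4a2 by 3.28 ± 0.64 (adjusted p = 0.0170) and Fcer1g by 1.20 ± 0.19 (adjusted p = 0.00689), and Fcer1a gave 1.51 ± 0.53 (adjusted p = 0.142). The Fcer1g call from LSK to CMP was lost without any 1 array other than a WT LSK array or KO LSK replicate 1 (adjusted p up to 0.168), and without either WT LSK array both Fcer1a (adjusted p = 0.00819) and Ms4a2 (0.00394) passed there. From LSK to GMP, leaving out KO LSK replicate 2 or either KO GMP array ended the Ms4a2 call, and KO GMP replicate 2 the Fcer1g call (0.0556), while Fcer1a passed without either WT LSK array (0.0173). From KO CMP to KO GMP none passed, against 0.769% of genes, with Fcer1a at -0.96 ± 0.53. The interactions above are the test of whether WT and KO steps differ, and none passed for any of the 3 genes. The dimmer Ms4a2 probe set also rose from WT LSK to WT CMP, by at least 3.85-fold against the floor (probe set fit, limma adjusted p = 0.0117, with 0.973% of probe sets passing).

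Replated KO cells held by far the highest level of every chain. Fcer1a read 13629 and 14796, the brighter Ms4a2 probe set 7214 and 7369, the dimmer one 3808 and 4231, and Fcer1g 6653 and 7124. Each of these lay above all 12 sorted arrays. Against KO LSK the rise was 100.1-fold for Fcer1a (log2 difference 6.65 ± 0.53 SE, limma adjusted p = 1.8e-05), 191-fold for Ms4a2 (7.58 ± 0.64, adjusted p = 2.6e-05) and 4.67-fold for Fcer1g (2.22 ± 0.19, adjusted p = 2.7e-05). Against KO CMP the folds were 18.1, 23.0 and 2.28, and against KO GMP 35.3, 19.8 and 2.04. All 3 genes passed in each of these comparisons, in which 25.1%, 24.4% and 25.3% of all genes passed (10.8%, 10.3% and 10.2% as higher), so passing the test was common there. The 3 comparisons share the replated arrays. In order of level, the replated cells stood apart from the next group for each chain (Ms4a2 against WT GMP 3.76 ± 0.65, adjusted p = 0.00253, and Fcer1g against KO GMP 1.03 ± 0.19, adjusted p = 0.00438, probe set fit). Below them, no neighbouring pair in the order of Ms4a2 or Fcer1g passed. That order ran KO LSK, WT LSK, KO CMP, KO GMP, WT CMP and WT GMP for Ms4a2, while Fcer1g was lowest in LSK (WT, then KO), followed by both WT groups (CMP, then GMP) and both KO groups (CMP, then GMP).

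Mast cell markers rose together with the receptor in the replated cells. Against KO CMP, 13 of 14 mast cell markers rose, and against KO LSK all 14 did, with summed intensities of 67061 to 69589. Over all 18194 genes, 1871 rose and 2561 fell against KO CMP, and 1969 rose and 2590 fell against KO LSK. The chymase Cma1 was at least 613-fold higher than in KO CMP, Mcpt4 at least 147-fold, Mcpt2 at least 141-fold and the tryptase Tpsab1 at least 44.5-fold, each against the floor because KO CMP arrays lay under it. Of 9 basophil markers 5 rose, Cd200r3, Gzmb, Il6 and Il4 among them, while Mcpt8 averaged 491, between the levels of WT LSK and WT CMP. Neutrophil markers fell for 9 of 10, led by Mpo (at least 468-fold lower than in KO CMP), monocyte markers fell for 7 of 9 and rose for 1, and of 8 CMP and GMP markers 5 fell and 2 rose. How far the receptor values follow the share of such cells was not tested.

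No kinase, adaptor or enzyme listed below the receptor passed by Tet2 genotype. Of 31 measured signalling genes (of 37 listed, the other 6 not analysed here) 0 rose and 0 fell in the averaged KO minus WT comparison, with a median log2 difference of -0.04 against 0.03 for all genes. The smallest p belonged to Prkcb, a protein kinase C (-0.62 ± 0.23 SE, limma adjusted p = 0.455), and to Rasgrp1, an exchange factor for Ras (1.27 ± 0.48, adjusted p = 0.457). Syk, the kinase the gamma chain recruits, averaged 284, 333 and 367 in WT LSK, CMP and GMP against 248, 313 and 351 in KO. From WT LSK to WT GMP 2 of the 31 rose and 3 fell (7.09% of all genes passed), including Fyn, a Src family kinase (-1.60 ± 0.16, adjusted p = 0.00054), and Nfatc2 (-3.26 ± 0.65, adjusted p = 0.0167). In replated cells against KO CMP 16 rose and 1 fell where 24.4% of all genes passed (median 0.88 against -0.07 for all genes). Prkcb rose from 98.2 to 9084 (6.53 ± 0.40, adjusted p = 2.9e-06), the mast cell exchange factor Rasgrp4 from 27.7 to 194, the adaptor Lcp2 (SLP-76) from 446 to 1949 and the adaptor Gab2 from 114 to 1257. Syk averaged 326 there, within its range over the sorted groups. Lat, an adaptor downstream of Syk, averaged 73.5 in KO GMP and 1566 in replated cells (4.41 ± 0.46 against KO GMP, adjusted p = 0.0001).

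Inhibitors of the receptor gave no KO call (0 of 20, median 0.03), the nearest being Tom1l1 at 0.71 ± 0.17 SE (limma adjusted p = 0.202). In replated cells against KO CMP 9 of the 20 rose and 5 fell, where 10.3% of all genes rose and 24.4% passed either way. Pirb, an inhibitory immunoglobulin-like receptor, rose from 41.7 to 566, and Siglecf, an inhibitory lectin of eosinophils, fell at least 28.2-fold to under the floor. The lipid phosphatase Inpp5d (SHIP1), which removes the lipid signal made below the receptor, rose 2.88-fold. Fcgr2b, the inhibitory IgG receptor, rose from 333 in WT LSK to 1839 in WT GMP (2.46 ± 0.21, adjusted p = 0.000287) and averaged 551 in replated cells.

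Other receptors that pair with the gamma chain gave 0 calls of 8 by genotype (median 0.09). From WT LSK to WT GMP, where 7.09% of all genes passed, 2 rose (Fcgr3, 3.30 ± 0.22 SE, and Fcgr4, 1.73 ± 0.42, limma adjusted p = 7.9e-05 and 0.0405). In replated cells against KO CMP, where 24.4% of all genes passed, 2 rose and 2 fell. Fcgr3, an activating IgG receptor, rose from 881 to 5355 in that last comparison, and Clec4n (Dectin-2) rose too, while the lectins Clec4e (Mincle) and Clec4d fell. Of 10 other ITAM adaptors and chains 0 passed by genotype, and Tyrobp (DAP12) rose from WT LSK to WT GMP by 1.48 ± 0.24 (adjusted p = 0.00622). The IgE-binding lectin Lgals3 (galectin-3) did not pass by genotype (0.14 ± 0.18, adjusted p = 0.861) and rose 41.5-fold in replated cells against KO CMP. The low-affinity IgE receptor Fcer2a also did not pass (-0.07 ± 0.15, adjusted p = 0.928).

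Relatives of Ms4a2 fell in the replated cells or did not pass. Of 16 measured Ms4a family genes other than Ms4a2, 8 fell and 0 rose against KO CMP. Over all 18194 genes, 2561 fell and 1871 rose there. The falls were led by Ms4a6c (at least 167-fold lower), Ms4a6b (at least 61.1-fold), Ms4a3 (22.9-fold, 3547 to 155) and Tmem176a (147-fold, with 1 replated array at the floor), several of them known from monocytes and granulocyte progenitors. By genotype, where 0.308% of all genes passed in the averaged comparison, 1 of the 16 did, Ms4a1 (CD20 of B cells). That gene averaged 16.6, 10.4 and 12.9 in WT LSK, CMP and GMP, all under the floor, and 179, 52.8 and 38.1 in KO. From WT LSK to WT GMP, where 7.09% of all genes passed, 4 rose and 1 fell. Ms4a3 rose by 1.87 ± 0.14 SE in that step (limma adjusted p = 0.000139).

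Transcription factors known to act on the receptor genes or in mast cells and basophils gave 0 calls of 18 by genotype (median 0.00), with Sp1 (-0.38 ± 0.10 SE, limma adjusted p = 0.257) and Usf2 (0.25 ± 0.07, adjusted p = 0.304) nearest. Gata2 averaged 6212, 7127 and 4139 in WT LSK, CMP and GMP against 6947, 6906 and 4012 in KO, and Gata1 572, 1912 and 692 against 635, 1497 and 706. In replated cells against KO CMP 4 rose and 2 fell, where 24.4% of all genes passed. Mitf, which drives mast cell genes, rose by 3.52 ± 0.36 (627 to 7209, adjusted p = 9.4e-05), Gata2 by 0.92 ± 0.13 (6906 to 13021), Tal1 by 1.07 ± 0.22, and Cebpa, the granulocyte factor, fell by 6.42 (5906 to 69.0). Of 10 measured genes for granule secretion 0 passed by genotype and 2 rose in replated cells against KO CMP, where 10.3% of all genes did, Rab27b and Snap23, a vesicle-tethering GTPase and a fusion protein.

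**Figure D4:**
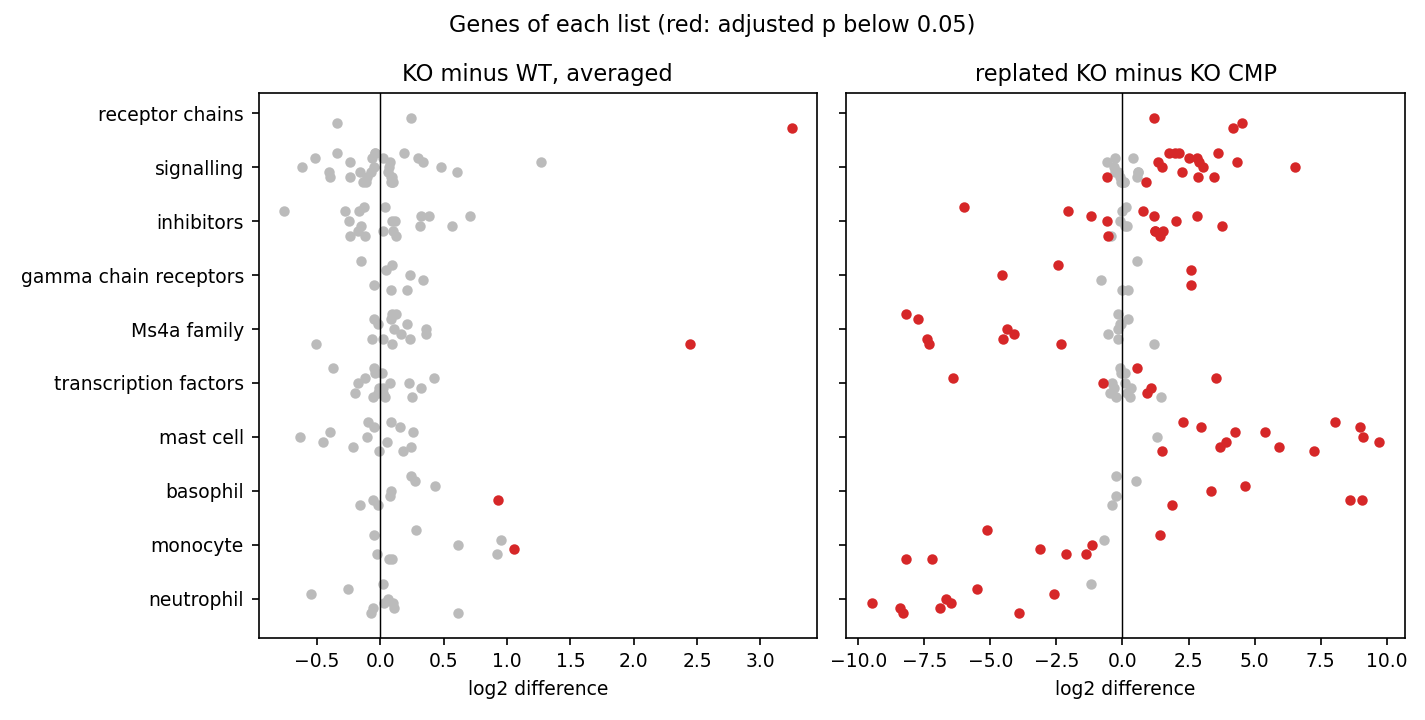
Log2 difference of each measured gene (points) in the receptor, pathway and marker lists, for KO minus WT averaged over LSK, CMP and GMP (left) and for replated KO minus KO CMP (right). Red points passed at adjusted p below 0.05. On the left, few points besides Fcer1a at 3.25 are red, and on the right mast cell markers lie mostly to the right of 0 and neutrophil markers to the left.

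The 3 chains varied together over all arrays and less so without the replated ones. Over the 14 arrays the correlation of log2 values, a description in which arrays share groups and the replated arrays dominate, was r = 0.785 for Fcer1a with Ms4a2, 0.838 for Fcer1a with Fcer1g and 0.945 for Ms4a2 with Fcer1g. Over the 12 sorted arrays it was 0.456, 0.640 and 0.886. Of 13177 genes considered, those whose log2 values followed Fcer1a most closely over the 14 arrays were Lpcat2 (r = 0.937), Slc24a3, Albfm1, P2ry1 and Atp6v0d1 (r = 0.921). Lpcat2, an enzyme of platelet-activating factor synthesis, averaged 384 in WT LSK, 645 in WT CMP and 532 in WT GMP, 725, 1150 and 959 in the matching KO groups, and 3726 in replated cells. Albfm1 was above the floor on the replated arrays alone. Those closest to Ms4a2 were Cpa3 (r = 0.967), a mast cell carboxypeptidase, then Rgs10, Rnf5, Rb1 and Cfp (r = 0.95). Those closest to Fcer1g were Kcne3 (r = 0.95), Cpa3, Npc2, Ms4a2 and Galnt3 (r = 0.943). Over the 12 sorted arrays the closest gene to Fcer1a was the Hmga2 pseudogene Hmga2-ps1 (r = 0.935), which averaged 34.6, 180 and 148 in WT LSK, CMP and GMP against 351, 764 and 918 in KO. None of the 5 genes closest to a chain over the 14 arrays was among its closest 5 over the sorted ones.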

How the data were processed

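RNA was measured on 14 one-colour Affymetrix arrays, 7 groups of 2. Per the labels' protocols, 5 ng of total RNA was amplified and biotin-labelled. The deposited values were made with RMA, per the submitters' processing notes, with the version not given in the sources used here. The deposited intensities are on a linear scale (array medians 31.2 to 33.0), and log2 was taken here. RMA scales and summarizes all arrays together, so arrays are not fully independent, and its low values are compressed.

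Probe sets were named from the platform annotation: 34958 of 45101 had 1 gene symbol, 932 had several and 9211 were not listed. For each of 18194 genes the probe set of highest mean log2 value was used. limma 3.58.1 in R 4.3.3 was fitted with 1 mean per group over all 14 arrays (7 residual and 2.19 prior degrees of freedom), with Benjamini-Hochberg adjustment over all genes and a threshold of 0.05. A second fit over 34958 probe sets gave the dimmer Ms4a2 values and the neighbours in level order. A fold against a group with both arrays under the floor was computed against the floor. The limma fit was tested on simulated data for KO minus WT in CMP, and the other steps were not. Genes and lists were chosen with earlier results of these data known, and the within-array ratios were added after the values were seen. Named genes were all probe sets of the 3 chains, the 5 closest genes by correlation, and, from each list, up to 4 genes that passed by smallest p (up to 2 where none passed). Genes given as levels only (Syk, Lat, Gata1, Gata2, Mcpt8, Fcgr2b, Hmga2-ps1 and the neighbouring genes) were chosen after their values were seen, where that rule does not name them.

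Same-numbered arrays of different groups did not deviate together (correlations -0.08 to 0.07 over 21 group pairs), so replicate numbers were not used as pairs. Alternatives were the probe set rule, a pseudocount of 16, the floor, a filter, scaling, the arrays fitted, the variance trend, a replicate block and leaving out each array.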

Additional observations from a re-analysis of the deposited data

How the results depend on the processing

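Each group held 2 arrays, so 1 array moved calls, and low signal limits Fcer1a and Ms4a2 in LSK, where arrays lie at the floor. In the alternatives other than leaving out an array, 489 of 519 values of the 3 chains kept their direction and side of the threshold, 18 lost the call, 10 gained one and 2 reversed. The averaged Fcer1a call and all 9 replated calls of the 3 chains were kept in every alternative that could be run (the replated ones need more than the 12 sorted arrays) and without each array. For the changes below the cause was not tested, beyond fewer arrays in the fits that use fewer. Quantile scaling and median centring moved the median difference of all genes by at most 0.0136 and 0.0396.

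With the 12 sorted arrays alone, calls were lost for Fcer1a in LSK (3.51, adjusted p = 0.0987) and CMP (4.13, 0.0758), Ms4a2 from WT LSK to CMP (3.37, 0.079) and Fcer1g from KO LSK to CMP (1.03, 0.079). With only the arrays compared, limma calls were lost for Fcer1a in LSK (3.51, adjusted p = 0.763) and CMP (4.13, 0.252). The same fit lost, from WT LSK to CMP, Ms4a2 (3.37, 0.356) and Fcer1g (1.23, 0.149). From WT LSK to GMP it lost Fcer1a (2.91, 0.175), Ms4a2 (3.73, 0.172) and Fcer1g (1.32, 0.0596). In KO it lost Fcer1g to CMP (1.03, 0.484), and Ms4a2 (3.28, 0.0529) and Fcer1g (1.20, 0.157) to GMP. Testing every probe set lost Ms4a2 from WT LSK to CMP (3.37, 0.0528) and Fcer1g from KO LSK to CMP (1.03, 0.057).

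Averaging probe sets turned Ms4a2 in LSK to 0.23 and its GMP minus CMP interaction to 0.62, and Ms4a2 passed from KO LSK to CMP (2.25, 0.0197), as with a variance trend (3.05, 0.043). Values raised to the floor passed for Fcer1a in GMP (2.10, 0.0293), from KO LSK to CMP for Fcer1a (2.46, 0.00487) and Ms4a2 (3.05, 0.0394), and to GMP for Fcer1a (1.51, 0.0112). A pseudocount of 16 did so from KO LSK to CMP for Fcer1a (2.34, 0.0141) and Ms4a2 (2.61, 0.0457), and to GMP for Fcer1a (1.41, 0.0304). Samples shared only a number. With the replicate block, the averaged calls over all genes went from 56 to 53, Ms4a2 from WT LSK to CMP (3.37, 0.0562) and Fcer1g from KO LSK to CMP (1.03, 0.0613) no longer passed, and Fcer1a from KO LSK to CMP did (2.46, 0.0391). Of the 3 chains, these alternatives and the reported fit called 0 or 1 by genotype in LSK, CMP and GMP, 0 to 2 from WT LSK to CMP, 0 to 3 from KO LSK to CMP, and 0 to 3 from LSK to GMP in WT and in KO.

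Leaving out each array in turn gave 600 of 672 values on the same side, 50 lost calls, 7 gained and 15 reversed. Calls in LSK and in CMP ranged from 0 to 1 of 3, and those from WT LSK to CMP, KO LSK to CMP and KO LSK to GMP from 0 to 3. By KO minus WT, Fcer1a ranged from 2.52 to 4.49 in LSK and from 3.77 to 4.49 in CMP. Ms4a2 ranged from -0.76 to 0.066 on average and from -1.32 to 1.14 in LSK, above 0 without WT LSK replicate 2 (0.066 and 1.14) and, in LSK, without KO LSK replicate 2 (0.32). Fcer1g ranged from 0.054 to 0.65 in LSK, 0.069 to 0.24 in CMP, 0.11 to 0.35 in GMP and 0.15 to 0.34 on average, and Fcer1a from 1.77 to 2.43 in GMP. The CMP minus LSK interaction ranged from -0.36 to 1.61 (Fcer1a), -1.55 to 0.92 (Ms4a2) and -0.49 to 0.10 (Fcer1g). GMP minus CMP ranged from -2.39 to -1.67 (Fcer1a), -0.43 to 0.14 (Ms4a2) and -0.048 to 0.19 (Fcer1g), and GMP minus LSK from -2.39 to -0.42 (Fcer1a; -0.50 with the floor and -0.46 with the pseudocount), -1.69 to 0.78 (Ms4a2) and -0.42 to 0.17 (Fcer1g). From WT LSK to CMP, the ranges were 0.86 to 2.82 (Fcer1a), 2.13 to 4.60 (Ms4a2) and 1.19 to 1.26 (Fcer1g), and to GMP 1.93 to 3.90 (Fcer1a) and 2.50 to 4.97 (Ms4a2). From KO LSK to CMP they were 2.29 to 2.64, 2.65 to 3.46 and 0.73 to 1.33, and to GMP 1.18 to 1.83, 2.87 to 3.68 and 0.90 to 1.49, in the same gene order. Ms4a2 from KO CMP to GMP ranged from -0.024 to 0.47. For the within-array ratios, the floor and the left-out arrays were chosen as alternatives after seeing the data. The 3 ratios with Fcer1a ranged from 2.67 to 3.96 over the 13 settings. They share the Fcer1a values, already known to read higher in KO. A small permutation p was thus likely in advance in each, and these settings are no separate support. The Ms4a2 to Fcer1g ratio ranged from -1.01 (without WT LSK replicate 1) to -0.17.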
